A study of Mus musculus with 24 samples.

Results

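The expression of 10 genes that mark adipocytes was described across mouse adrenal glands and neuroblastoma tumors. The genes were Adipoq, Lep, Retn, Cfd, Plin1, Plin4, Cidec, Fabp4, Car3 and Ucp1. They were found by their gene symbols in a table of 21833 protein-coding genes, and all 10 were in it. The question was how much fat the libraries held and how much this differed between libraries of the same group.

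Transcriptomes came from poly(A)-enriched, strand-specific RNA sequencing of 24 libraries in 4 groups. AG were adrenal glands of Cre-negative (CRE -) mice, with 3 libraries. AG_M were tumor-free adrenal glands of MYCN +/-, CRE + mice, with 5 libraries. T_I were neuroblastoma tumors of IGF2BP1, CRE + mice, with 8 libraries, 1 from a heterozygous (+/-) and 7 from homozygous (+/+) animals. T_IM were neuroblastoma tumors of IMP1/MYCN, CRE + mice, with 8 libraries (IMP1 is another name of IGF2BP1). The transgenes sat behind a stop cassette at the Rosa26 locus and were released by an iCRE under the Dbh promoter, which is active in sympatho-adrenal cells, so adipocytes were not the cells meant to carry them. The IGF2BP1 transgene lacked its 3′UTR, and the lines were backcrossed to C57Bl6/N. The labels gave no ages. By the paper, the MYCN mice were culled at a later age than the homozygous IGF2BP1 mice, and mice with both transgenes had a shorter median survival. Age therefore differed between groups, and its part was not tested. Most IGF2BP1 tumors in the paper lay in the lower abdomen and not in the adrenal gland. Those of mice with both transgenes lay in adrenal glands, in the abdomen or along the spine. Tumor against gland is thus also a comparison of sites in part, and the part of the site was not tested. Libraries are numbered here by their order in the table, which is not the sample number of the labels. The zygosity and location of a single library were therefore not known.

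Adipocytes store triglyceride in a large lipid droplet and release hormones, the adipokines, into the blood. White adipocytes are known for leptin and adiponectin, whereas brown adipocytes, which in mice are common around the adrenal gland and kidney, burn fat to make heat through the uncoupling protein UCP1. Neither adrenal cortex cells nor chromaffin cells are known to express Adipoq, Lep or Ucp1. Adrenal glands are dissected out of this fat, and in bulk RNA, fewer cells of a type and less RNA per cell cannot be told apart.

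To show where transcription of the members on which the results turn begins, windows of 300 bases (250 before and 50 after the start) were taken from RefSeq on GRCm38.p6, in 5′ to 3′ direction on the strand of the gene. Of the 10 members, 8 had such a window. Capitals mark matches on either strand to TATAA (the TATA box), CCAAT (the CCAAT box), CACGTG (the E-box), TTGCGCAA (a C/EBP palindrome) or AGGTCA (the nuclear receptor half-site). The Adipoq window was chr16:23146286-23146585 (+ strand), that of Lep chr6:29059971-29060270 (+ strand), that of Ucp1 chr8:83290098-83290397 (+ strand) and that of Plin1 chr7:79732727-79733026 (- strand).
Adipoq: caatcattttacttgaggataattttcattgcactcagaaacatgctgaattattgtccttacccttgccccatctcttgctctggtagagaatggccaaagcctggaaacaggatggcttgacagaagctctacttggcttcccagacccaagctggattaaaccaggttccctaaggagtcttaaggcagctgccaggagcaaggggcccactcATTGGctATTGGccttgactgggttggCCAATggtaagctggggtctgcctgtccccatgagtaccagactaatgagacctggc
Lep: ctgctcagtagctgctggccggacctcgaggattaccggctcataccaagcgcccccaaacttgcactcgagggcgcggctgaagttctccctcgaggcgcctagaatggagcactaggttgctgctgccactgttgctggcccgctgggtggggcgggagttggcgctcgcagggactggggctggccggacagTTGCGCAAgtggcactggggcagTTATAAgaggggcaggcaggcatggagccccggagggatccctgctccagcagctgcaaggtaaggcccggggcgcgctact
Ucp1: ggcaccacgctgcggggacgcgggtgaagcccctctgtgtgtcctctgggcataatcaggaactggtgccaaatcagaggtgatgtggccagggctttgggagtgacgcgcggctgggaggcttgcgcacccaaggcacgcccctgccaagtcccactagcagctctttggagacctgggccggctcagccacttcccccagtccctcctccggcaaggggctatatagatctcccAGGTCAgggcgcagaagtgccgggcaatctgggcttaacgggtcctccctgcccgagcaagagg
Plin1: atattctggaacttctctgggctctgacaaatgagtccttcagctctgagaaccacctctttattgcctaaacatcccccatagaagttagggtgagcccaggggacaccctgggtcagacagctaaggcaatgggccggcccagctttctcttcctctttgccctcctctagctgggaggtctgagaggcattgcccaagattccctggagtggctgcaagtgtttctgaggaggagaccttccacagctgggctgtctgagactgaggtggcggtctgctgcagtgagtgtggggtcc

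The start base is counted as 0. The Adipoq window held CCAAT at position -7 and its reverse complement at positions -34 and -27. The Lep window held TTGCGCAA at position -55 and TATAA at position -31, the latter overlapping a match on the other strand that began at -32. The Ucp1 window held AGGTCA at position -14, and the Plin1 window held none of the 5 motifs. Among 32851 windows of this length, 24.9% held TATAA, 37.4% CCAAT, 7.15% CACGTG, 0.183% TTGCGCAA and 16.3% AGGTCA. These matches are a description of letters, not of bound sites.

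Levels are given as FPKM (fragments per kilobase of the gene and per 1000000 scaled fragments, after the authors' batch correction). Differences are given in log2(FPKM + 1), where the added 1 shrinks the change of low genes, with the standard error (SE) and the p-value that limma gave after Benjamini-Hochberg adjustment over the 10171 genes that reached 1 FPKM in 3 or more libraries. The SE rests on 1 spread per gene, pooled over the 4 groups. The median SD of the members was 1.20 in AG, 0.72 in AG_M, 0.061 in T_I and 0.79 in T_IM. For most members the SE against AG is therefore smaller than the AG spread alone would give, and so are the p-values. All 10 members passed the filter of 1 FPKM in 3 or more libraries. For 8 of them, all but Fabp4 and Ucp1, only the adrenal gland libraries made them pass. The counts of members in tumors against those libraries, and the p-values of these 8 there, are therefore a description. Lep needed AG_M to pass, so its p-values in every comparison with AG_M are a description too. Outside the 126 genes above 1000 FPKM in any library, the recovered reads numbered 12334076 to 23683176 per library. With those genes they numbered 116740738 to 1170004708 in AG_M and 58530450 to 888626365 in T_IM. In AG they were 17434796 to 17893013 and in T_I 12468968 to 21353172. The highest single values were 12269461 FPKM in AG_M library 3 and 3480580 FPKM in T_IM library 4, beside 631 in AG and 926 in T_I. The part of the run or its correction in these values was not tested. By the labels, AG was sequenced wholly in run 1 and AG_M wholly in run 2, T_I mostly in run 1 (6 of 8), and T_IM in runs 2 (3 samples) and 3 (5 samples). Run and group therefore cannot be told apart in AG_M vs AG and T_IM vs AG. Markers fitted the labels in part: the cortex gene Star stood at 178 to 184 FPKM in AG, 238 to 476 in AG_M and at most 1.69 in the tumors. Cyp11b2, the aldosterone synthase of the outer cortex, was almost absent from AG (0.0351 to 0.0631 FPKM) but stood at 311 to 665 FPKM in AG_M.

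Fat transcripts were abundant in both kinds of adrenal gland and nearly absent from the tumors. The 10 members summed to 214, 1097 and 1496 FPKM in AG libraries 1, 2 and 3. In AG_M the sum ran from 371 to 1400 FPKM with a median of 694. The T_I tumors held 0.182 to 2.48 FPKM in all, with a median of 1.30. The T_IM tumors ran from 0.0590 to 70.1 FPKM, with a median of 2.89. As a share of the reads outside the 126 very high genes, the members took 0.308% to 1.79% in AG, 0.461% to 1.99% in AG_M, 0.000502% to 0.00577% in T_I and 0.000107% to 0.0868% in T_IM. No tumor library reached the lowest gland in this share.

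**Figure D1:**
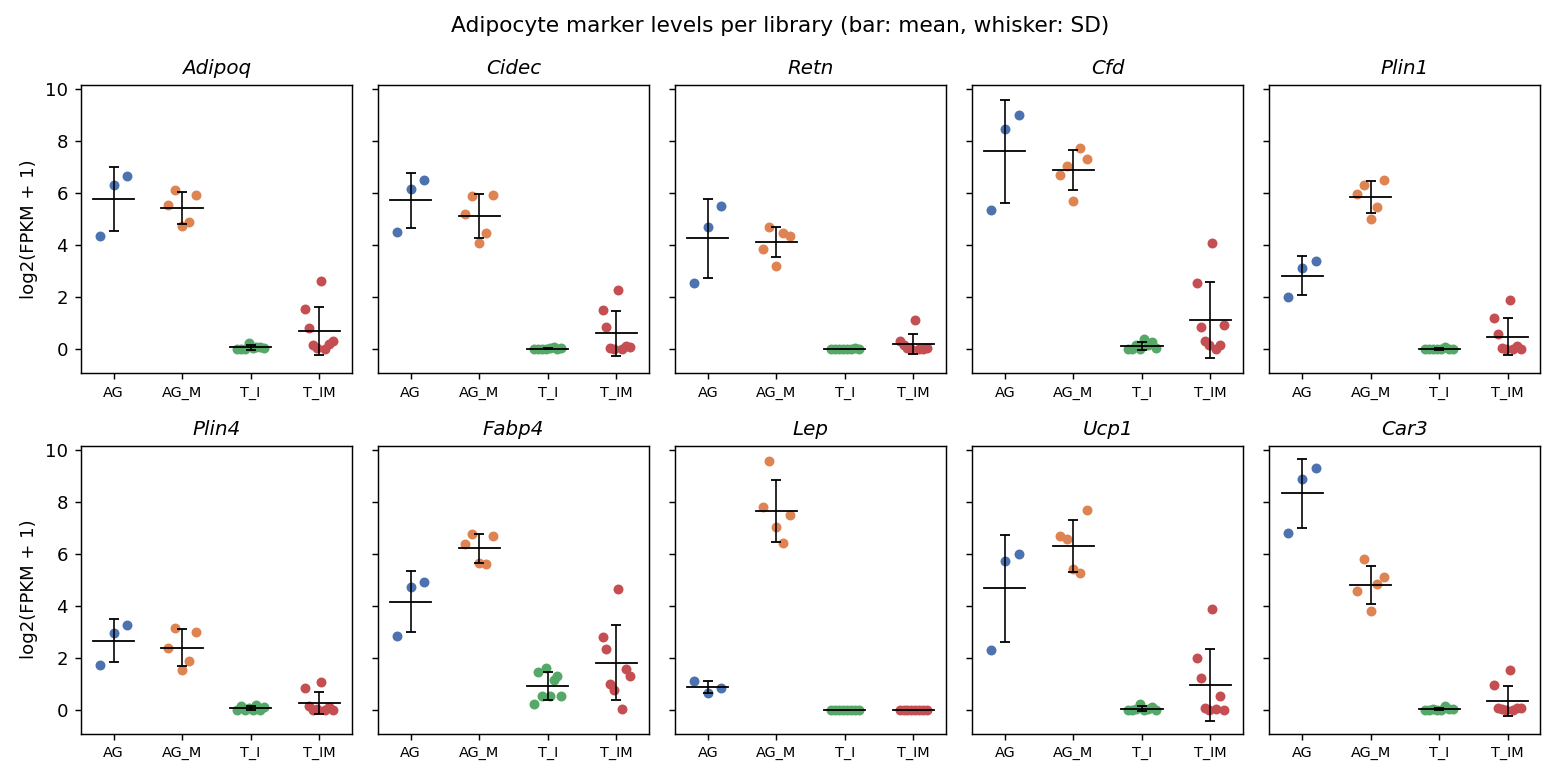
Level of each member as log2(FPKM + 1) (vertical axis) in every library of the 4 groups (horizontal axis). Each point is 1 library, bars are group means and whiskers SD (n = 3 AG, 5 AG_M, 8 T_I and 8 T_IM). AG library 1 lies lowest of the AG points for 9 of 10 members, and T_IM library 5 highest of the T_IM points for 9 of 10.

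In the comparison of T_I with AG, all 10 members were lower in the tumors, where 27.7% of all tested genes were lower and 24.6% higher. Likewise, all 10 were lower in T_IM than in AG, where 28.5% of tested genes were lower and 22.5% higher. The median difference over the members was -4.44 for T_I vs AG and -3.88 for T_IM vs AG, beside medians of -0.00 for all tested genes in both. Both comparisons share the 3 AG libraries. In AG_M vs AG, 3 members were higher (background 14.6%), 1 was lower (background 14.0%) and 6 did not pass the test. Of these 3, Lep was tested only because of its level in AG_M.

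Adipoq encodes adiponectin, an adipokine that only fat cells make in quantity (chr16:22964106-22976810 on GRCm39). Its level was 19.6, 79.7 and 99.7 FPKM in AG and 45.5, 68.8, 25.6, 29.1 and 60.0 FPKM in AG_M. In T_I it ran from 0 to 0.193 FPKM with a median of 0.0417, and in T_IM from 0.00804 to 5.16 FPKM with a median of 0.201. The 2 gland groups overlapped, and every tumor lay below every gland. Adipoq was lower by -5.72 (SE 0.47) in T_I than in AG (limma, adjusted p = 5.55e-10) and by -5.07 (SE 0.47) in T_IM than in AG (limma, adjusted p = 4.46e-09). Between AG_M and AG the difference was -0.34 (SE 0.50), with an adjusted p of 0.663 by limma.

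Lep encodes leptin, the adipokine that reports fat stores to the brain (chr6:29060216-29073877). It stood apart from the other members. Its level was 1.16, 0.578 and 0.789 FPKM in AG, from 204 to 417 reads per library. In AG_M it was 221, 773, 132, 83.8 and 181 FPKM. All 5 AG_M libraries thus lay far above all 3 AG libraries. The means were 330-fold apart, and 183-fold without AG_M library 2. The difference was 6.80 (SE 0.38), with an adjusted p of 8.58e-13 by limma. Lep passed the filter only because of AG_M, so this p-value is a description. The 8 T_I libraries held 2 Lep reads in all and the 8 T_IM libraries 1 read, where 3 reads would give 0.00670 to 0.0120 FPKM. On the log2 scale this was -0.87 (SE 0.35) against AG in both, with adjusted p-values of 0.0404 (T_I) and 0.0413 (T_IM) by limma. These 2 calls were lost whichever AG library was left out (adjusted p = 0.0624 to 0.154), without a filter on low values, and without most single tumor libraries. Their SE shares the Lep spread of all 4 groups. The Lep SD was 1.20 in AG_M, 0.23 in AG and at most 0.00195 in the tumors. Fits of the 2 groups alone kept both calls, and every tumor lay below every AG library.

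The rise of Lep in AG_M stood beside other very large values in that group. Of the genes on the wider adipocyte lists, the beta-adrenergic receptor gene Adrb3 was at 0.00276 to 0.0167 FPKM in AG and at 93.5 to 254 FPKM in AG_M, a difference of 7.33 (SE 0.50; limma, adjusted p = 5.93e-11). Adrb3 too passed the filter only because of AG_M, so its p-value is a description. The exocrine pancreas gene Cpb1 was at a mean of 0.00287 FPKM in AG and 39763 FPKM in AG_M. Most other genes of the pancreas list did not go with it. Cpa1, Cela2a, Pnlip, Prss2 and Cel had AG_M means of at most 0.00589 FPKM, and Ctrb1 had a median of 0 there. Cela1 went from a mean of 2.36 FPKM in AG to 17.8 FPKM in AG_M. The liver gene Apoc3 was at means of 0.0155 FPKM in AG and 2504 FPKM in AG_M. The adrenal cortex list summed to 688 to 719 FPKM in AG and 4343 to 5447 FPKM in AG_M, and 8 of its 10 genes were higher in AG_M. The part that the run, its correction or other tissues had in the Lep value was not tested.

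Retn encodes resistin, an adipokine of mouse white fat (chr8:3705324-3710689). It was 4.90, 25.2 and 44.6 FPKM in AG and 13.6, 24.8, 8.31, 20.9 and 19.4 FPKM in AG_M. T_I ranged from 0 to 0.0254 FPKM (median 0, 4 reads in all) and T_IM from 0 to 1.20 FPKM (median 0.0380). The gland groups overlapped and the tumors lay below both. Retn differed by -4.26 (SE 0.38) in T_I and -4.05 (SE 0.38) in T_IM against AG (limma, adjusted p = 2.76e-09 and 6.39e-09). Between AG_M and AG it differed by -0.15 (SE 0.41; limma, adjusted p = 0.835), but by -0.996 with an adjusted p of 0.0277 when AG library 1 was left out.

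Cfd encodes adipsin, the complement factor D that fat secretes (chr10:79726668-79728496). With 39.8, 358 and 520 FPKM it had the next widest range in AG after Ucp1, 13.1-fold. In AG_M it was 103, 131, 51.6, 214 and 158 FPKM. T_I ranged from 0 to 0.305 FPKM (median 0.0730) and T_IM from 0 to 16.1 FPKM (median 0.515). Again the glands overlapped and no tumor reached them. The differences from AG were -7.49 (SE 0.72) in T_I, -6.49 (SE 0.72) in T_IM and -0.72 (SE 0.77) in AG_M, with limma's adjusted p at 8.17e-09, 8.03e-08 and 0.527.

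Plin1, Plin4 and Cidec encode proteins on the surface of the lipid droplet. Plin1, whose product perilipin 1 guards the stored triglyceride against lipases (chr7:79369966-79382718), was 2.98, 7.67 and 9.46 FPKM in AG. In AG_M it was 62.3, 79.4, 30.9, 43.2 and 89.2 FPKM. Every AG_M library lay above every AG library, a 9.10-fold difference of the means and 3.02 (SE 0.39) on the log2 scale (limma, adjusted p = 2.38e-06). In T_I, 5 of 8 libraries had no Plin1 read and the highest had 0.0694 FPKM, while T_IM reached 2.76 FPKM (median 0.0644). Against AG, Plin1 was lower by -2.82 (SE 0.36) in T_I and by -2.35 (SE 0.36) in T_IM (limma, adjusted p = 6.61e-07 and 8.48e-06).

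Plin4, which coats small new droplets (chr17:56406617-56416931), did not show this rise. It was 2.29, 6.88 and 8.67 FPKM in AG and 4.22, 8.01, 1.88, 2.67 and 7.06 FPKM in AG_M, a difference of -0.26 (SE 0.34; limma, adjusted p = 0.602). The glands overlapped. T_I ranged from 0.00157 to 0.148 FPKM (median 0.0247) and T_IM from 0 to 1.102 FPKM (median 0.0487), all below the glands, with differences from AG of -2.59 (SE 0.31) and -2.38 (SE 0.31; limma, adjusted p = 3.01e-07 and 1.06e-06).

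Cidec, whose product lets droplets fuse into larger ones (chr6:113400691-113412721), followed Adipoq. It was 22.0, 70.7 and 89.1 FPKM in AG and 35.8, 59.3, 15.9, 21.2 and 60.0 FPKM in AG_M, with an adjusted p of 0.384 by limma between the 2 gland groups. T_I ranged from 0 to 0.0562 FPKM, with 5 of 8 libraries at 0 reads, and T_IM from 0 to 3.87 FPKM (median 0.0689). All tumors lay below all glands. The differences from AG were -5.71 (SE 0.46) in T_I and -5.12 (SE 0.46) in T_IM (limma, adjusted p = 4.21e-10 and 2.84e-09).

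Fabp4 encodes a fatty acid carrier that adipocytes, but also macrophages and capillary endothelium, express (chr3:10268785-10273737). It was 6.16, 25.6 and 29.7 FPKM in AG and 82.9, 108, 49.4, 48.3 and 102 FPKM in AG_M. The gland groups did not overlap, and AG_M was higher by 2.05 (SE 0.70; limma, adjusted p = 0.0307). This call was lost at a pseudocount of 0.1 and under both other scalings, and without AG library 1 or AG_M library 1, 2 or 5 (adjusted p = 0.0529 to 0.236). The difference stayed near the same size at that pseudocount (2.13) and without those AG_M libraries (1.92 to 2.01), was 1.65 and 1.67 under the scalings, and was 1.39 without AG library 1. Fabp4 was the member most present in tumors, with reads in all 16. T_I ranged from 0.167 to 2.07 FPKM (median 0.827) and T_IM from 0.0297 to 24.3 FPKM (median 1.71), and T_IM library 5 reached into the AG range. Against AG the differences were -3.25 (SE 0.65) in T_I and -2.36 (SE 0.65) in T_IM (limma, adjusted p = 2.0e-04 and 0.00411). The endothelium list summed to 4.20 to 39.6 FPKM in T_I and 3.44 to 15.6 in T_IM, and the macrophage list to 15.3 to 57.2 and 27.3 to 57.5 FPKM, so other cells that make Fabp4 were represented in the tumors. Their part in the Fabp4 level was not tested.

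Car3 encodes carbonic anhydrase 3, abundant in fat and in slow skeletal muscle (chr3:14928489-14937595). It was the most abundant member in AG, at 111, 471 and 631 FPKM, and fell to 22.8, 54.4, 12.9, 27.9 and 33.5 FPKM in AG_M. All 5 AG_M libraries lay below all 3 AG libraries, with a difference of -3.51 (SE 0.44; limma, adjusted p = 1.83e-06). In T_I it ranged from 0 to 0.106 FPKM (median 0.0141) and in T_IM from 0 to 1.87 FPKM (median 0.0434), lower than AG by -8.30 (SE 0.41) and -8.00 (SE 0.41; limma, adjusted p = 6.34e-14 and 1.19e-13). The skeletal muscle list summed to 1.36 to 3.45 FPKM in AG and 0.114 to 0.368 FPKM in AG_M, with no overlap and in the same order of groups as Car3, though 0 of its 3 tested genes passed in AG_M vs AG by limma. Within AG the order was the reverse: the list summed to 3.45, 1.72 and 1.36 FPKM in libraries 1, 2 and 3, where Car3 rose. This list holds mostly genes of fast fibres, and the part of muscle in the Car3 level was not tested.

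Ucp1 marks brown and beige adipocytes (chr8:84016647-84025085). It had the widest range of all members in AG, with 3.90, 52.1 and 62.8 FPKM, a 16.1-fold span. In AG_M it was 102, 93.5, 42.0, 37.1 and 206 FPKM, overlapping AG, with a difference of 1.65 (SE 0.78; limma, adjusted p = 0.119). T_I ranged from 0 to 0.169 FPKM (median 0.0148) and T_IM from 0 to 13.7 FPKM (median 0.262), where library 5 exceeded the lowest gland. Ucp1 was lower than in AG by -4.62 (SE 0.73) in T_I and -3.70 (SE 0.73) in T_IM (limma, adjusted p = 1.27e-05 and 1.82e-04).

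**Figure D2:**
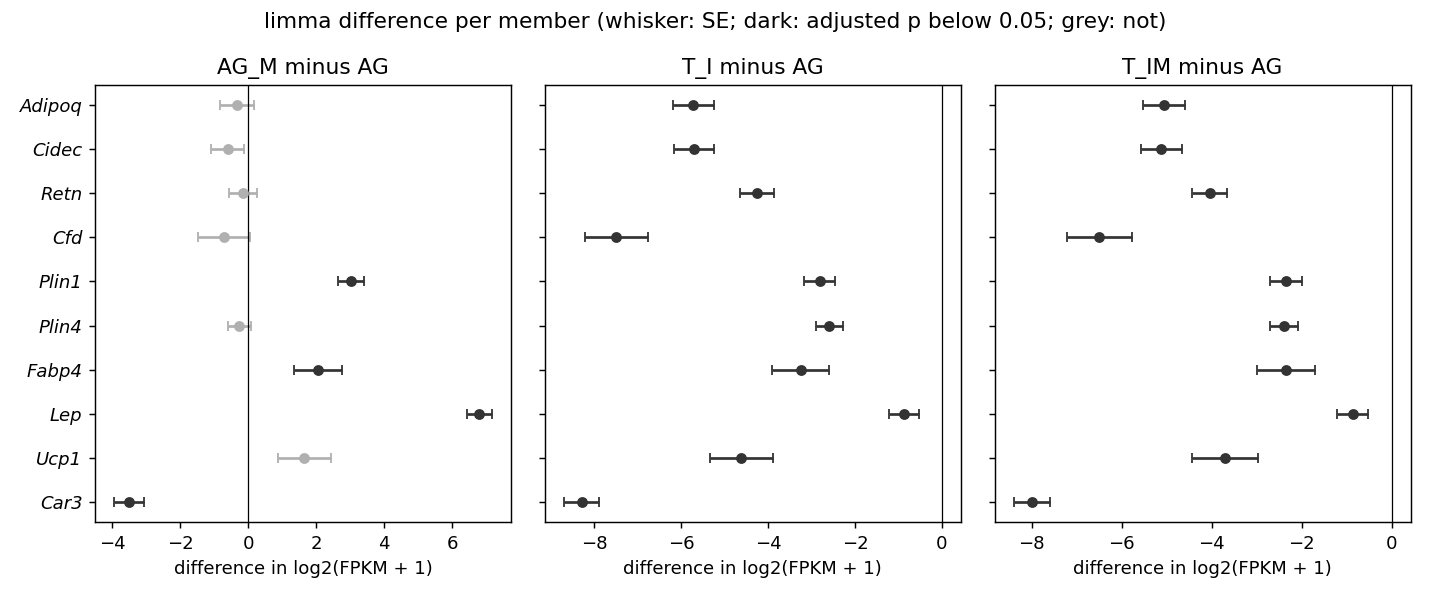
limma difference in log2(FPKM + 1) from AG (horizontal axis) for each member (vertical axis) in AG_M, T_I and T_IM. Whiskers are SE, dark points passed an adjusted p of 0.05 and grey points did not. All members lie left of 0 in both tumor panels, whereas in AG_M Lep (6.80), Plin1 (3.02) and Fabp4 (2.05) lie to the right and Car3 (-3.51) to the left.

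The size of these differences depended on which libraries were in the fit. Shifts of over 1.5-fold are named here, counted on FPKM + 1 and not as a ratio of the log2 differences. Without AG library 1, 7 of the members (Adipoq, Car3, Cfd, Cidec, Fabp4, Retn and Ucp1) shifted this far in T_I vs AG and in T_IM vs AG. They went to between -9.06 and -3.92 and between -8.76 and -3.02. Without AG library 3, Cfd, Retn and Ucp1 shifted this far in the other direction, to between -6.79 and -3.63 in T_I vs AG and between -5.79 and -3.04 in T_IM vs AG. All of these remained past the threshold. Without T_IM libraries 1, 2 and 5, chosen for their Adipoq reads, Cfd, Fabp4 and Ucp1 moved by as much in T_IM vs AG, to between -7.31 and -3.23. In AG_M vs AG, Car3 moved to -4.27 and Fabp4 to 1.39 without AG library 1. Members that did not pass there moved as well: leaving out AG library 1 or 3 took Ucp1 to 0.46 or 2.31, Cfd to -1.85 or -0.01 and Adipoq to -1.05 or 0.10, none of them past the threshold by limma.

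The members varied widely between glands of the same group. The SD of log2(FPKM + 1) over the 3 AG libraries had a median of 1.20 over the members, beside 0.0531 over all tested genes. Cfd, Ucp1 and Retn each had a larger SD in AG than 99.9% or more of the tested genes, and Lep, the least variable member there, had an SD of 0.23. AG library 1 was the lowest of the 3 for 9 members and the highest for Lep, and AG library 3 was the highest for the other 9. The adrenal cortex list was flat across the same libraries, at 719, 698 and 688 FPKM, as was the endothelium list at 24.2, 22.8 and 23.8 FPKM. The brown fat program list, which Ucp1 was not part of, moved with the members, at 13.9, 125 and 120 FPKM. AG library 1 thus had a 5.08-fold lower Adipoq level than library 3 with a cortex signal that was no lower.

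In AG_M the members' SD had a median of 0.72, beside 0.139 over all tested genes. AG_M library 3 was lowest for 7 of 10 members, and it was also the library with the highest adrenal cortex sum (5447 FPKM) and the highest chromaffin and neuroblast sum (2508 FPKM). AG_M library 2 was highest for 6 members and had the lowest sums of both lists (4343 and 1455 FPKM). In T_I the median SD was 0.061, beside 0.241 over all tested genes, but near 0 FPKM this scale compresses any spread. The summed level of the members spanned 13.6-fold in T_I, 6.98-fold in AG and 3.78-fold in AG_M.

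The T_IM tumors ranged widely, with a 1188-fold span of the summed level. Their median SD over the members was 0.79, beside 0.314 over all tested genes. The mean log2(FPKM + 1) of the members was 2.32 in library 5, 1.36 in library 1 and 0.703 in library 2, whereas the median of the group was 0.285 and the highest of the T_I libraries 0.216. In library 5, Adipoq was at 5.16 FPKM, Fabp4 at 24.3 FPKM and Ucp1 at 13.7 FPKM, and in library 6 they were at 0.00804, 0.0297 and 0 FPKM. The same library 5 had the highest adrenal cortex sum in T_IM (11.6 FPKM, beside 1.43 to 4.43 in the other 7), the highest chromaffin and neuroblast sum (4707 FPKM), the highest endothelium sum (15.6 FPKM) and a skeletal muscle sum of 23.6 FPKM. Library 1 had the highest skeletal muscle sum (30.1 FPKM), and libraries 1 and 5 stood apart in it from the other 6, which held 0.247 to 4.76 FPKM. Whether neighbouring tissue had a part in the fat signal of these tumors was not tested.

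**Figure D3:**
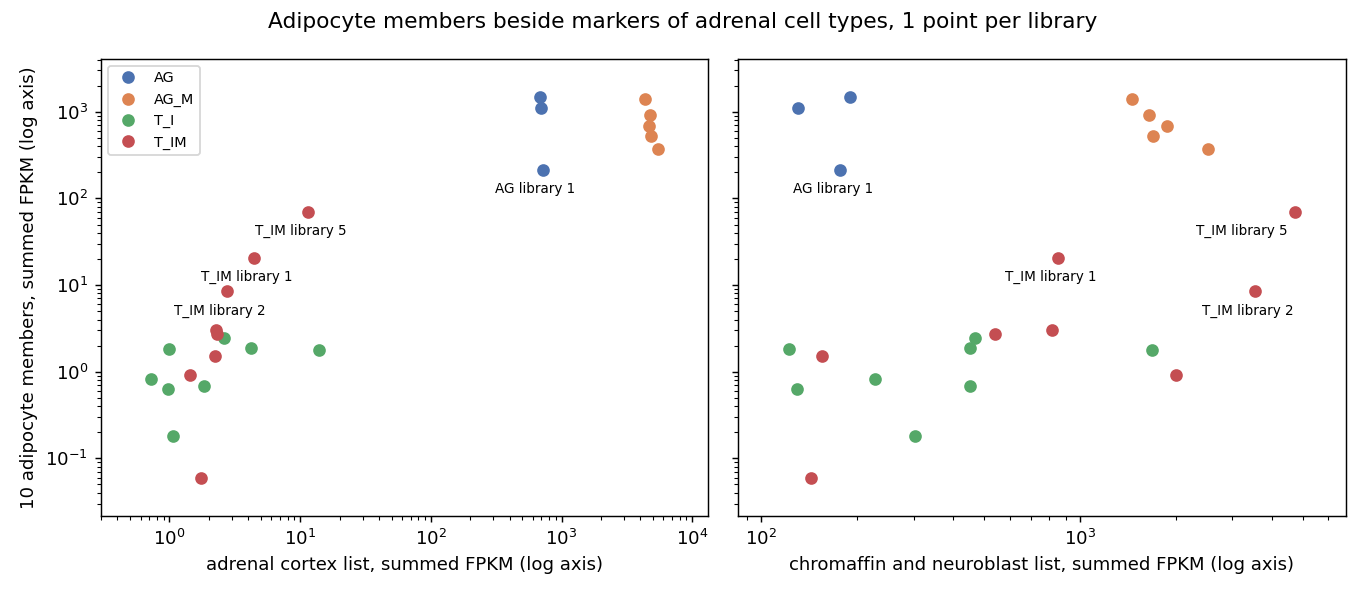
Summed FPKM of the 10 members (vertical log axis) against the summed FPKM of the adrenal cortex list (left, horizontal log axis) and of the chromaffin and neuroblast list (right, horizontal log axis), 1 point per library, coloured by group. The 3 AG points share a cortex level (688 to 719 FPKM) but span 214 to 1496 FPKM of adipocyte members, and T_IM libraries 5, 1 and 2 lie above the other tumors.

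In T_IM vs T_I, none of the 10 members passed the test by limma (adjusted p = 0.176 to 1.0), where 10% of tested genes were higher and 12.9% lower. No member had an unadjusted p below 0.05 either (lowest 0.0719), and limma-voom on the recovered reads called 0. With a pseudocount of 0.1 in place of 1, Adipoq passed, with a difference of 1.76 and an adjusted p of 0.0399 by limma. The differences ran from -0.00 to 0.999 with a median of 0.53, and 9 of 10 were above 0. Adipoq was at 0.65 (SE 0.35), with 4 of the 8 T_IM libraries above all T_I libraries. With T_IM libraries 1, 2 and 5 left out, the differences ran from -0.04 to 0.18 with a median of 0.02. As these libraries were chosen after their values were seen, as those with the most Adipoq reads, the fall toward 0 is fixed by that choice and shows only where the difference lay. A p-value that misses the threshold does not show that the tumor groups held equal fat.

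Against AG_M, the tumors were lower for all 10 members in both comparisons. In T_IM vs AG_M, 33.4% of tested genes were lower and 31.9% higher, and in T_I vs AG_M 36.2% were lower and 36.2% higher. The median difference over the members was -4.62 for T_IM and -5.35 for T_I, beside 0.03 and 0.01 over all tested genes. Lep showed the largest of them, at -7.67 (SE 0.29) in each, with adjusted p-values of 1.93e-16 and 1.84e-16 by limma.

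Relations between the members within a library do not depend on how the library was scaled. They were therefore also expressed relative to Adipoq, in the 11 libraries with 100 or more Adipoq reads: 3 AG, 5 AG_M, and T_IM libraries 1, 2 and 5 with 279, 100 and 648 reads. This limit was set after the values were seen. In the glands, 4 of the other 9 members were higher relative to Adipoq in every AG_M library than in every AG library, beside 7.91% of all 10170 genes, and 1 was lower, beside 0.708%. Adipoq spanned 5.08-fold within AG, so genes that do not follow it have wide ratios there and separate the groups less readily. These 2 shares are therefore not a like background for the members.

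The first 4 were Plin1, Fabp4, Lep and Ucp1. Plin1 stood at 0.0949 to 0.152 of Adipoq in AG and 1.15 to 1.49 in AG_M. Fabp4 was 0.298 to 0.321 of Adipoq in AG and 1.57 to 1.93 in AG_M, and these ranges were narrow although the Adipoq level itself varied 5.08-fold in AG. Ucp1 was 0.199 to 0.654 of Adipoq in AG and 1.28 to 3.42 in AG_M. Lep was 0.00725 to 0.0590 and 2.88 to 11.2. Car3 went the other way, with 5.67 to 6.33 in AG and 0.502 to 0.958 in AG_M. Cidec, Retn, Cfd and Plin4 kept overlapping ratios, for example 0.887 to 1.12 against 0.622 to 1.0 for Cidec.

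In the 3 T_IM tumors, 2 of the 9 ratios (Plin4 and Fabp4) lay above every gland, 3 (Retn, Lep and Car3) below every gland, and 4 (Cidec, Cfd, Plin1 and Ucp1) within or overlapping the range of the glands. Their Fabp4 was 3.17 to 5.29 times Adipoq, beside at most 1.93 in a gland, and their Plin4 0.135 to 0.406, beside at most 0.118. Their Retn was 0.119 to 0.232 of Adipoq, beside at least 0.250 in the glands. Their Plin1 was 0.535 to 0.664 of Adipoq, between the AG and the AG_M range, and their Car3 was 0.0530 to 0.484, below both. No Lep read was found in any of the 3, and 3 reads would have given at most 0.00443, 0.0124 and 0.00191 of Adipoq in libraries 1, 2 and 5. In libraries 1 and 5 this limit, which covers counting error only, lies below the lowest AG ratio of 0.00725. Whether the run had a part in these proportions was not tested.

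**Figure D4:**
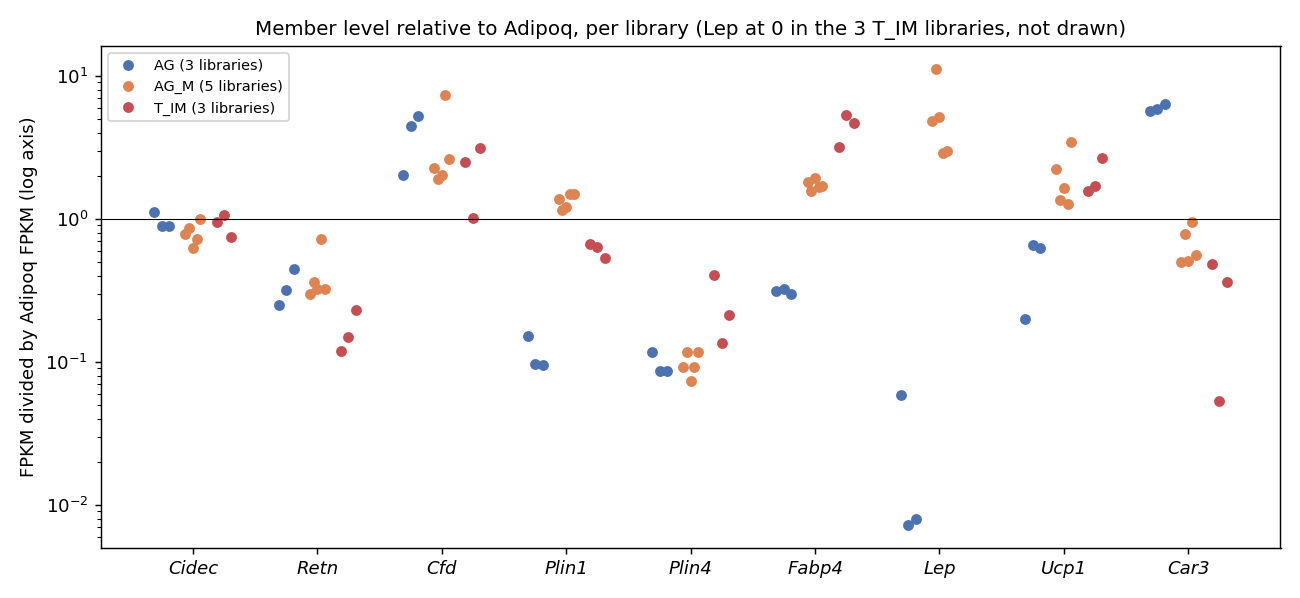
FPKM of each member divided by the Adipoq FPKM of the same library (vertical log axis) for the other 9 members (horizontal axis) in AG (3 libraries), AG_M (5) and T_IM (3). Plin1, Fabp4, Lep and Ucp1 lie higher in all AG_M than in all AG points and Car3 lower, while Lep was 0 in the T_IM libraries and is not drawn.

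Other genes of the adipocyte were counted in the same comparisons, where 27.7% (T_I) and 28.5% (T_IM) of all tested genes were lower than in AG, 24.6% and 22.5% were higher, and 14.6% were higher and 14.0% lower in AG_M. These shares are the background of each count that follows. Some genes of the lists below, among them Pck1, Aqp7 and Cox8b, passed the filter only through adrenal gland libraries. The counts in tumors against AG, and the p-values of such genes there, are therefore a description. Of 23 genes of the lipid droplet and of triglyceride turnover, 18 were lower and 1 higher in T_I than in AG, and 17 were lower and 1 higher in T_IM. The median differences of this list were -2.34 and -2.12, and 0.52 in AG_M vs AG, beside -0.00 for all tested genes in each. Pck1, whose product feeds glycerol synthesis in fat, was at 5.76 to 72.9 FPKM in AG and 0 to 0.0320 FPKM in T_I, a difference of -4.95 (SE 0.50; limma, adjusted p = 1.95e-08). Gpd1, which makes glycerol 3-phosphate for triglyceride, was lower by -4.60 (SE 0.91) in T_I and by -3.30 (SE 0.91) in T_IM (limma, adjusted p = 1.86e-04 and 0.00422). In AG_M vs AG 6 of the 23 were higher and 1 lower. Agpat2, an acyltransferase of triglyceride synthesis, was higher by 3.96 (SE 0.62), from 3.79 to 13.3 FPKM in AG to 76.9 to 265 FPKM in AG_M (limma, adjusted p = 3.70e-05).

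Of 11 genes of fatty acid synthesis, 10 were lower in T_I and 10 in T_IM, and none was higher (median differences -2.06 and -1.78, and 0.50 in AG_M). The desaturase gene Scd1 was lower by -6.08 (SE 0.90) in T_I and by -3.98 (SE 0.90) in T_IM (limma, adjusted p = 5.47e-06 and 7.39e-04). Malic enzyme Me1, which supplies NADPH, was lower by -4.90 (SE 0.31) in T_I, but at 46.8 to 50.1 FPKM it did not vary across the AG libraries as the members did. Nor did Acly (89.0 to 108 FPKM) and Srebf1 (8.75 to 9.24 FPKM), or Gpam of the lipid droplet list (12.3 to 13.0 FPKM). Fasn (13.7 to 112 FPKM) and Gpd1 (11.3 to 57.9 FPKM) did vary. The counts of both lists thus include genes that did not follow the members in AG. The part of other gland cells in these counts was not tested. In AG_M 2 were higher and 1 lower. Thrsp, a lipogenic regulator, was higher by 4.54 (SE 0.74; limma, adjusted p = 6.83e-05).

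Of 9 tested adipocyte transcription factors, 5 were lower in T_I, 4 in T_IM, and 5 higher in AG_M (median differences -0.64, -0.50 and 0.78). Cebpa, a master regulator of fat differentiation, was lower by -2.73 (SE 0.41) in T_I and -2.33 (SE 0.41) in T_IM and higher by 1.40 (SE 0.44) in AG_M (limma, adjusted p = 6.44e-06, 4.87e-05 and 0.0207). Of 12 tested adipokines, receptors and other adipocyte genes, 7 were lower and 1 higher in each tumor group, and 4 were higher in AG_M (median differences -1.06, -0.91 and 0.73). The exception was Nnat, which also marks neural and endocrine cells, higher by 2.43 (SE 0.67) in T_I and 3.01 (SE 0.67) in T_IM (limma, adjusted p = 0.00412 and 6.55e-04).

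Of 6 tested genes of the brown fat program, 3 were lower in each tumor group and 2 higher in AG_M (median differences -0.99, -0.79 and 1.54). Cox8b, a cytochrome c oxidase subunit of brown fat, was at 6.50 to 72.1 FPKM in AG and 0 to 0.237 FPKM in T_I. It was lower by -4.99 (SE 0.80) in T_I and by -3.84 (SE 0.80) in T_IM (limma, adjusted p = 1.73e-05 and 3.59e-04). In T_IM library 5 it stood at 27.6 FPKM. Cidea, a lipid droplet gene of brown fat, was higher by 2.70 (SE 0.82) in AG_M (limma, adjusted p = 0.0169).

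Fat stroma and other tissues were counted in the same way. Of 8 tested genes of fat stroma, 4 were lower in each tumor group, and in AG_M 2 were higher and 2 lower, with summed levels of 42.4 to 54.9 FPKM in AG and 26.1 to 108 FPKM in T_I. The adrenal cortex list was lower for 9 of 10 genes in each tumor group, as for the adipocyte members. In endothelium, 4 of 8 were lower in T_I and 7 of 8 in T_IM. In the macrophage list, 1 of 5 tested genes was lower in T_I and 2 in T_IM, which is near the background. The chromaffin and neuroblast list had 3 of 8 higher in T_I, also near the background, 5 in T_IM and 5 in AG_M. In AG_M vs AG, 5 of 6 liver genes and 2 of 5 tested exocrine pancreas genes were higher.

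Genes whose levels followed the members from library to library were sought with the group means removed, over the 24 libraries, which share the scaling and the depth of each library. The 8 with the highest Pearson correlation with the mean of the members were Chpt1 (r = 0.974), Adig (r = 0.955), Acacb (r = 0.944), Lipe (r = 0.931), Ucp3 (r = 0.927), Slc2a4 (r = 0.917), Crat (r = 0.915) and Cox7a1 (r = 0.911). Lipe encodes hormone-sensitive lipase and Slc2a4 the insulin-responsive glucose transporter. Adig, or adipogenin, was at 0.368 to 3.86 FPKM in AG, 20.54 to 67.4 FPKM in AG_M and up to 4.08 FPKM in T_IM. Among the members themselves, Adipoq was closest to the mean of the other 9 (r = 0.991) and Lep farthest (r = 0.179, Spearman's rho = -0.126).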

How the data were processed

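RNA was measured by poly(A)-enriched, strand-specific sequencing. The authors trimmed reads with cutadapt 2.8, aligned them with HISAT2 2.1.0 to mm39, used SAMtools 1.10, counted with featureCounts 2.0.0 (names and versions from the submitters' processing notes), corrected counts for the sequencing run with ComBat-seq and scaled them by the trimmed mean of M-values in edgeR 3.40. The deposited values are FPKM of 21833 protein-coding genes, and they hold the authors' scaling: multiplied by gene length, 100% of the values were whole multiples of 1 read (tolerance 0.1 read), and the scaled library sizes were 74.7 to 134 (in units of 1000000 fragments), 3.54 to 6.47 times the recovered reads outside genes above 1000 FPKM. The 9 deposited columns of the authors' own comparisons (fold changes, p-values and false discovery rates) were not used. No 2 columns were identical.

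Columns were assigned to groups by name. Where nothing says that samples came from separate animals, p-values measure only the spread between these samples. limma 3.58.1 in R 4.3.3 was run with an intensity trend on log2(FPKM + 1) of the 10171 genes that passed the filter, with all 24 libraries in 1 fit without covariates, adjustment by Benjamini-Hochberg and a threshold of 0.05. A quasi-likelihood test on counts was not used because the values are FPKM. The procedure was checked on simulated data. Those data gave each gene 1 spread for all 4 groups, so the check does not cover the unequal spreads of the members. The fit was repeated with a pseudocount of 0.1, without the filter, within the 2 groups compared, on FPKM recomputed per 1000000 reads outside the 126 genes, by limma-voom on recovered reads and without single libraries.

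The 10 members and the wider lists were chosen with earlier results of these data known. Named besides the members are, per list, up to 2 genes with the largest change past the threshold in each comparison with AG, and the 8 genes most like the members. Star and the single-library values were chosen after values were seen. Gene positions are from GENCODE M39 on GRCm39. Some items are not reported here.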

Additional observations from a re-analysis of the deposited data

Results flagged for a closer look

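In groups of 4 to 10 libraries, a library was singled out where its gap to the nearest other one was large for the range of the group (Dixon's 95% limit). Of 30 groups tested (10 members in AG_M, T_I and T_IM), 13 were singled out. Chance gives about 1 in 20 only where values are normally distributed and the groups are independent. The measure was taken on FPKM, which in the tumors was skewed and often rested on few or no reads. Most members also rose and fell together. The 13 therefore cannot be weighed against that rate, and they only describe which libraries stood apart.

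T_IM library 5 was the highest of its group by this measure for 7 members: Adipoq (5.16 FPKM, next 1.91), Cidec (3.87, next 1.81), Retn (1.20, next 0.227), Cfd (16.1, next 4.79), Plin1 (2.76, next 1.27), Fabp4 (24.3, next 6.05) and Ucp1 (13.7, next 3.005). The 7 flags are not independent, since they come from 1 library.

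Lep in AG_M library 2 was 773 FPKM, where the next library had 221 FPKM. The exocrine pancreas list summed to 428309 FPKM in the same library and to 28352 to 58011 FPKM in the other 4 AG_M libraries. Most of that 428309 FPKM was the single gene Ctrb1, at 385599 FPKM, while the median of Ctrb1 in AG_M was 0 FPKM. The part of that library's scaling or of other tissue in the Lep value was not tested. Lep in T_IM library 7 was 0.00261 FPKM, which is 1 read where the other 7 libraries had 0.

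In T_I, single libraries stood apart at levels near 0: Adipoq in library 4 (0.193 FPKM, next 0.0582), Retn in library 7 (0.0254 FPKM, 3 reads), Plin1 in library 6 (0.0694 FPKM, 34 reads, next 0.0152) and Car3 in library 6 (0.106 FPKM, next 0.0349).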

How the results depend on the processing

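Of 1050 single-member results under alternatives, 2 newly passed, 27 no longer passed and 1021 stayed on their side of the threshold. No difference past the threshold turned, but 7 that were not past it changed sign: in AG_M vs AG, Adipoq (0.10), Plin4 (0.05) and Retn (0.48) without AG library 3, and Retn without AG library 2 (0.08) or AG_M library 3 (0.08); in T_IM vs T_I, Car3 (-0.00) and Plin4 (-0.04) without T_IM libraries 1, 2 and 5. The 27 lost calls were Fabp4 in AG_M vs AG or Lep in T_I and T_IM vs AG. The new calls were Adipoq in T_IM vs T_I at a pseudocount of 0.1 (1.76, adjusted p = 0.0399), which gave 1 called member there in place of 0, and Retn in AG_M vs AG without AG library 1. The mean log2 level of the members became 7.13 in AG, 7.57 in AG_M and 0.445 in T_I with recomputed FPKM, -2.73 in T_I and -1.46 in T_IM with a pseudocount of 0.1, and 0.0434 in T_I without Ucp1, Car3 and Fabp4. Recomputed FPKM and limma-voom shifted the median of all tested genes in AG_M vs AG to -0.34 and -0.50, in T_IM vs AG to -0.14 and -0.23, and in T_IM vs T_I to -0.12 and -0.17. In AG_M vs AG, this turned 51.2% of calls higher into 21.8% and 14.4%, and the calls numbered 5863 and 4235 in place of 2908 (6312 within the 2 groups alone, 1727 to 1826 without single AG libraries). In T_IM vs T_I, calls numbered 1309 within the 2 groups and 3595 with recomputed FPKM in place of 2332, and the higher share of 43.6% became 29.9% and 22.7% under these 2 scalings. It became 31.5% in T_IM vs AG by limma-voom (from 44.2%), 59.9% and 60.5% in T_IM vs AG_M (from 48.8%) and 63.1% and 64.6% in T_I vs AG_M (from 50.03%). With these scalings Lep was at 7.22 and 7.49, Plin1 at 2.73 and 2.77 and Car3 at -4.02 and -4.03. Requiring 1 FPKM in every library left no member, so it gave no value. No paired analysis was possible because the columns carry no sample number, and the replicate block was not run. Leaving out AG_M or AG libraries assumes that the remaining ones vary like the other groups.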
